A study of Rattus norvegicus with 9 samples.

Results

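The 10 genes described here belong to the VEGF and angiopoietin pathways and were followed through the cell classes of the rat tibial osteotomy site. They were picked by symbol from the 41801 genes listed in the count tables, by a rule that uses no measured value, although earlier results of these data were known when the list was drawn up. They comprised 6 ligands (Vegfa, Vegfb, Vegfc, Pgf, Angpt1 and Angpt2) and 4 receptors (Kdr, Flt1, Nrp1 and Tek). All 10 had UMIs, the molecule counts of droplet sequencing, in every library. Tissue came from male Sprague-Dawley rats, aged 6 to 8 weeks in the methods of the study, in which a 3 mm disc of tibial cortex had been freed by trephine and a 4 mm skin wound made on the foot. TO rats had the osteotomy alone, and TOE rats also received radial shock waves (rESWT) through the skin over the bone. Shock waves were given 2 and 4 days after injury. A library is named by its arm, by the day of the application and by the hours that passed from it to collection, or the same time in TO rats, so that 24 h libraries were collected on the next day. The 8 analysed here were TO 2d 0h, TO 2d 4h, TO 4d 4h, TO 4d 24h, TOE 2d 4h, TOE 2d 24h, TOE 4d 4h and TOE 4d 24h. The sample TO 2d 24h is in the labels and was not analysed here. Each condition was 1 library, so no difference between TOE and TO was tested, and the number of rats behind a library is not given in the sources used here.

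Vegfa is the main signal by which tissues short of oxygen call in vessels, and it acts on endothelium through the tyrosine kinase Kdr, while Flt1 binds it tightly and limits what reaches Kdr. Vegfb and Pgf bind Flt1 and not Kdr, Vegfc is best known for lymphatic growth through Flt4 and also acts on Kdr, and Nrp1 is a co-receptor for several of these ligands that also binds semaphorins. Angpt1 activates the endothelial receptor Tek and steadies vessels, whereas Angpt2, released by activated endothelium, mostly opposes it. In bone, vessel growth and bone formation are coupled.

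Stretches upstream of 3 of these genes are shown to place them in the genome, 1 ligand found in many cell classes and 2 receptors that were highest in endothelium. The sequences are from RefSeq on the GRCr8 assembly. The table of promoters used here matched 7 of the 10 genes, and Tek, Angpt1 and Angpt2 were not matched. Each is on the + strand and ends at the base before the first annotated start of the gene. In Kdr (chr14:32571813-32572030) and Nrp1 (chr19:73256307-73256556) the capitals mark GGAA or its complement TTCC, the core of ETS factor sites. In Vegfa (chr9:22452604-22452853) the capitals mark GGGCGG, a GC box. ACGTG, a form of the core of the hypoxia response element, was searched on both strands as well and has 0 matches in all 3 stretches. Other forms of that core were not searched, nor were bases further upstream of these stretches.
Kdr: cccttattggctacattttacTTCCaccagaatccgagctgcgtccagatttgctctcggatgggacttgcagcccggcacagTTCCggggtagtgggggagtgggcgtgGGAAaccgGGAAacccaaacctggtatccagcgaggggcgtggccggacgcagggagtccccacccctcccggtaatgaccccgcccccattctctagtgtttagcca
Nrp1: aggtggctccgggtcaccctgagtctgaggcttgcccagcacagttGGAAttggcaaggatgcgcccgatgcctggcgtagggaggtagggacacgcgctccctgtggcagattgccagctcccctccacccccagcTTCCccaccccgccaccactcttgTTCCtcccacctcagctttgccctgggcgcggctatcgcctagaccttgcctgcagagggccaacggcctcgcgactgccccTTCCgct
Vegfa: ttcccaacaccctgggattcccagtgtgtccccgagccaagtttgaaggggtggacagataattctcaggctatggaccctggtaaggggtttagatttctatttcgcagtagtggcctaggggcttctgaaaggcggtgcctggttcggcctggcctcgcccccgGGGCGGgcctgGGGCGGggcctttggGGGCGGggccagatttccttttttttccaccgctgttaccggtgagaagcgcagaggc
GGAA occurred 4 times upstream of Kdr and 4 times upstream of Nrp1, but also 4 times upstream of Vegfa, where it is not capitalised. GGGCGG occurred 3 times upstream of Vegfa, 1 time upstream of Kdr and 0 times upstream of Nrp1. Among 33469 promoters, 93.2% hold GGAA, 16.6% hold ACGTG and 30.5% hold GGGCGG in the 250 bases before the start. A match to GGAA is therefore usual.

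The libraries held 12451 to 17187 barcodes and 95954800 to 144146202 UMIs, with medians of 4522 to 5668 UMIs per barcode, and 111646 cells were kept. Any 2 libraries shared at most 110 barcodes, 0.783% of the smaller library. The cells were clustered without the 10 genes and named from fixed markers. B-cell-like cells made up 63909 of the cells, neutrophil-like cells 15434, monocyte-like cells 12054 and erythroid-like cells 6297. Macrophage-like cells numbered 2181, dendritic-cell-like cells 2108, mast-cell/basophil-like cells 989 and endothelial-like cells 296. The mesenchymal-like class (1097 cells) held 339 osteoblast-like, 179 fibroblast-like, 122 chondrocyte-like and 76 CXCL12-stromal-like cells. The rest were 2 groups of stromal cells left without a name. The classes were uneven between libraries. TOE 2d 24h gave 414 of the mesenchymal-like cells, most of them without a name (76 osteoblast-like, 17 chondrocyte-like, 12 CXCL12-stromal-like and 2 fibroblast-like). TOE 4d 24h gave 13 endothelial-like and 24 macrophage-like cells, and TO 4d 4h gave 124 of the 179 fibroblast-like cells. A level is the count of a gene divided by all UMIs of the same cells in 1 library and scaled to 1e6 UMIs (CPM), for libraries with at least 10 cells of the class. The SD of a mean covers the 8 libraries, which also differ in condition, and where nothing says that libraries came from separate animals it may be partly technical.

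The 4 receptors had their highest levels in the endothelial-like class, which carried all 12 endothelial markers at a summed 5055 to 6182 CPM, against 12.1 to 76.6 CPM in mesenchymal-like cells. Flt1, the high-affinity receptor, measured 980 CPM in TO 2d 0h, 2620 in TO 2d 4h, 2078 in TO 4d 4h, 1306 in TO 4d 24h, 1778 in TOE 2d 4h, 894 in TOE 2d 24h, 1952 in TOE 4d 4h and 872 in TOE 4d 24h (mean 1560 ± 645, SD, n = 8). The 4 libraries collected at 4 h were all above the 4 collected at 0 or 24 h, in both arms and on both days. The same order held narrowly among the 69 cells of the sub-cluster with the highest Flt1, led by Adamts5 and Stab2. There the 4 h libraries lay between 2106 and 3621 CPM and the 3 others with such cells between 1723 and 2089 CPM. A library gave only 4 to 17 such cells, the smallest number being below the minimum set for a level. Flt1 in the other sub-clusters is not given by library here. The order in this sub-cluster therefore does not show that the split holds within a cell type. Kdr, the main signalling receptor, ranged from 337 CPM in TOE 4d 24h to 739 CPM in TO 4d 24h, with a median of 441 (503 ± 157). Tek, the angiopoietin receptor, ranged from 185 CPM in TO 2d 0h to 522 CPM in TOE 4d 24h with a median of 328 (313 ± 110). Nrp1 ranged from 376 to 607 CPM with a median of 417 (457 ± 91.3). Nrp1 divided the libraries by hour as Flt1 did, though more narrowly, with 430.5 to 607 CPM at 4 h and 376 to 404 CPM at 0 or 24 h, whereas Kdr and Tek did not. These splits were noticed after the values were seen and were not tested. The share of all genes that divide the libraries in this way in endothelial-like cells was not counted. The splits are therefore not shown to be particular to these genes. The hour also divided the libraries beyond endothelium. B-cell-like clusters led by Igll1 and Ank2, by Cecr2 and Ank2, and by Sox5 and Bank1 each held 10.8% to 42.9% of the B-cell-like cells of a 4 h library and at most 2.7% of those of any other library. The part of such differences between whole libraries in the splits was not tested.

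**Figure D1:**
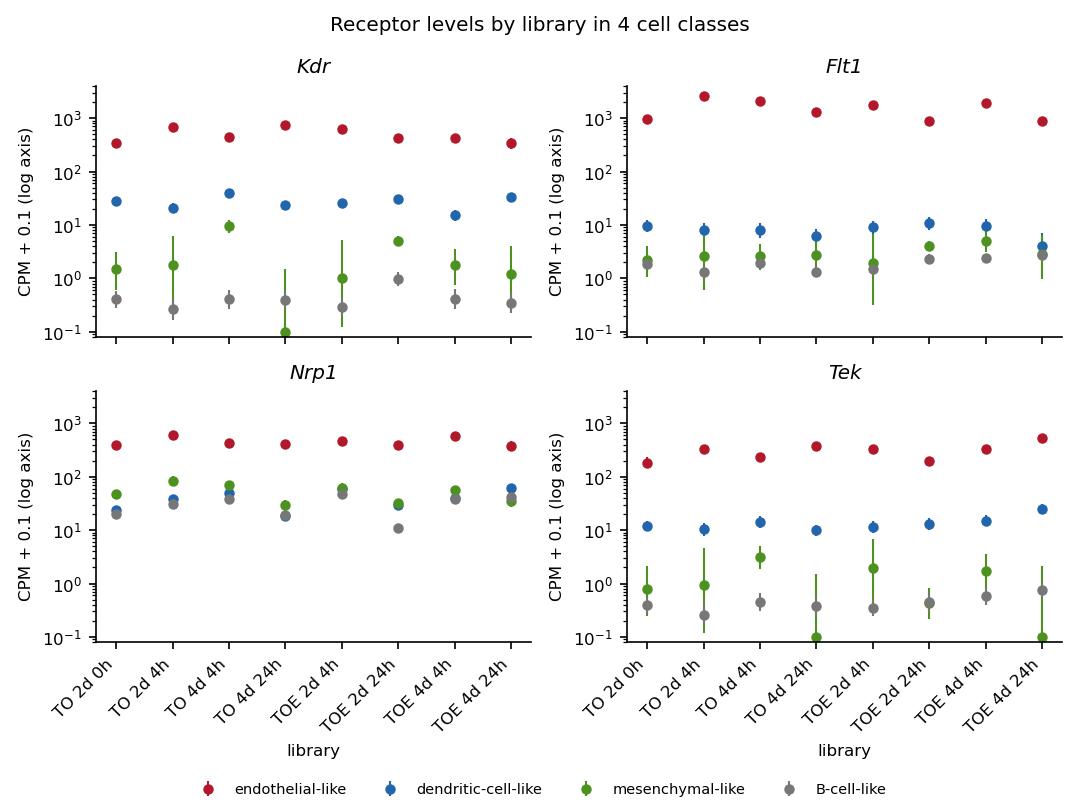
Levels of Kdr, Flt1, Nrp1 and Tek in each library for endothelial-like, dendritic-cell-like, mesenchymal-like and B-cell-like cells, as CPM + 0.1 on a log axis, with bars for the 95% Poisson interval of counting. The endothelial-like points are the highest in every library, and those of Flt1 lie between 1778 and 2620 CPM at 4 h and between 872 and 1306 CPM at 0 and 24 h.

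Endothelial-like cells exceeded every other class in each of the 8 libraries for Kdr, Flt1, Tek and Nrp1, among the classes with at least 10 cells. After each cell was thinned to 2000 UMIs, 80.6% of endothelial-like cells had a Flt1 UMI, 58.5% a Kdr UMI, 56.1% an Nrp1 UMI and 42.2% a Tek UMI (289 of 296 cells were deep enough, and the median before thinning was 17792 UMIs). In the same cells without thinning these shares were 97.2%, 96.2%, 95.2% and 91.3%. In B-cell-like cells, which should lack Flt1, Kdr and Tek, thinned shares were 0.410% for Flt1, 0.0588% for Kdr and 0.0726% for Tek, over 57830 of 63909 cells with a median of 4343 UMIs (1.13%, 0.208% and 0.208% unthinned). The B-cell-like share for Nrp1 was higher, 3.91% thinned and 11.1% unthinned. Thinning was drawn once. The exact interval for Flt1 over the 289 cells, pooled over the 8 libraries, spans 75.6% to 85.0%. It treats cells as independent and leaves out the spread between libraries.

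**Figure D2:**
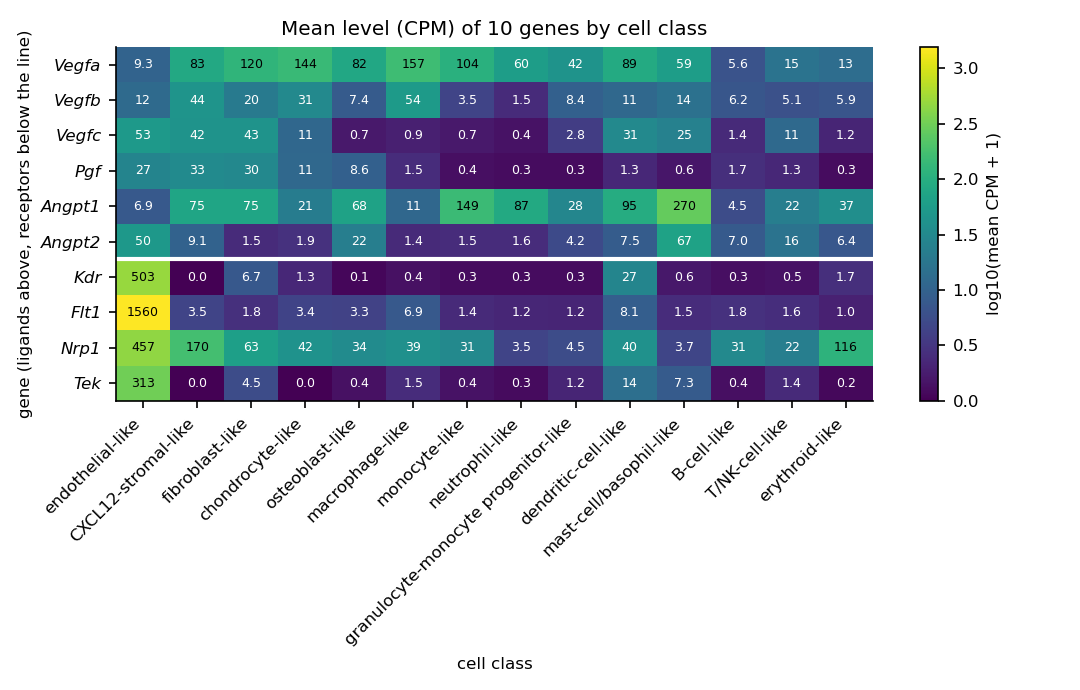
Mean level of each of the 10 genes in each cell class, printed in CPM and coloured by log10(mean CPM + 1), with ligands above the line and receptors below it. The endothelial-like class stands out for the 4 receptors, with means of 313 to 1560 CPM, while Vegfa and Angpt1 are spread over myeloid and stromal classes.

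Outside endothelium, Kdr and Tek were next highest on average in the dendritic-cell-like class. Kdr there measured 15.0 to 40.0 CPM with a median of 27.3 (27.2 ± 7.6), above every further class in each library, and Tek measured 9.97 to 25 CPM with a median of 12.5, above every further class in 7 of 8 libraries. These cells held 22.9% of all Kdr UMIs (11.2% to 50.2% by library) and 19.2% of all Tek UMIs (11.7% to 33.0%). Flt1 behaved otherwise, with 341 UMIs in these cells beside 1116 UMIs of Kdr, whereas endothelial-like cells held 9934 UMIs of Flt1 beside 3040 of Kdr. Endothelial markers summed to 115 to 167 CPM in the dendritic-cell-like class, with Ecscr at 0. The class was mixed, since its leading genes Siglech and Flt3, of plasmacytoid dendritic cells, stood beside Pf4 and Meis1, of megakaryocytes and progenitors.

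At a finer clustering, 1276 of the 2108 cells stayed dendritic-cell-like and 775 were called HSPC-like, for haematopoietic stem and progenitor cells. Kdr stayed with the dendritic-cell-like cells at 49.6 ± 14.1 CPM (25.9 to 69.2, n = 8) against 2.47 ± 2.60 CPM in the HSPC-like cells. Angpt1 and Vegfc went the other way. Angpt1 measured 183 ± 94.0 CPM in HSPC-like cells (104 to 396) against 7.80 ± 3.14 CPM in dendritic-cell-like cells, and Vegfc 55.6 ± 20.7 CPM (20.1 to 92.0) against 8.25 ± 3.53 CPM. The ranges of the 2 groups did not overlap for Kdr, Angpt1 or Vegfc. Those of Angpt2 did not overlap either, at 3.85 to 36.7 CPM in HSPC-like and 0.335 to 3.74 CPM in dendritic-cell-like cells. The groups were not tested against each other, and the share of all genes with such ranges was not counted. Tek was shared by both, at 13 ± 5.68 CPM in dendritic-cell-like and 15.0 ± 4.83 CPM in HSPC-like cells.

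Nrp1 reached further than the other receptors. CXCL12-stromal-like cells, the stroma that supports marrow progenitors, measured 170 ± 123 CPM (n = 3 libraries with enough cells), and erythroid-like cells 116 ± 43.2 CPM (70.4 to 172, n = 8). Those 2 classes were not separated from each other, and erythroid-like cells lay above fibroblast-like cells, the next class, in all 3 libraries with both. At the finer clustering, pericyte/smooth-muscle-like cells, a class described below, measured 288 ± 121 CPM (140 to 436, n = 4). Endothelial-like cells there measured 459 ± 94.9 CPM (n = 8). Nrp1 was also raised in 1 B-cell-like cluster, led by the precursor genes Igll1 and Dntt, at 118 CPM. B-cell-like cells, 57.2% of all cells, carried 36.7% of the 34241 Nrp1 UMIs. Erythroid-like cells, only 5.64% of all cells, carried 19.8%, monocyte-like cells 16.2% (9.45% to 25.9% by library) and endothelial-like cells 8.56%. In TOE 2d 24h endothelial-like cells held more than B-cell-like and erythroid-like cells, at 21.7% against 13.2% and 5.91%. For Flt1, Kdr and Tek the endothelial-like class held 79.3%, 62.3% and 60.7% of all UMIs (by library 47.0% to 89.0%, 35.7% to 76.6% and 33.0% to 72.3%), although it was 0.108% to 0.538% of the cells of a library.

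**Figure D3:**
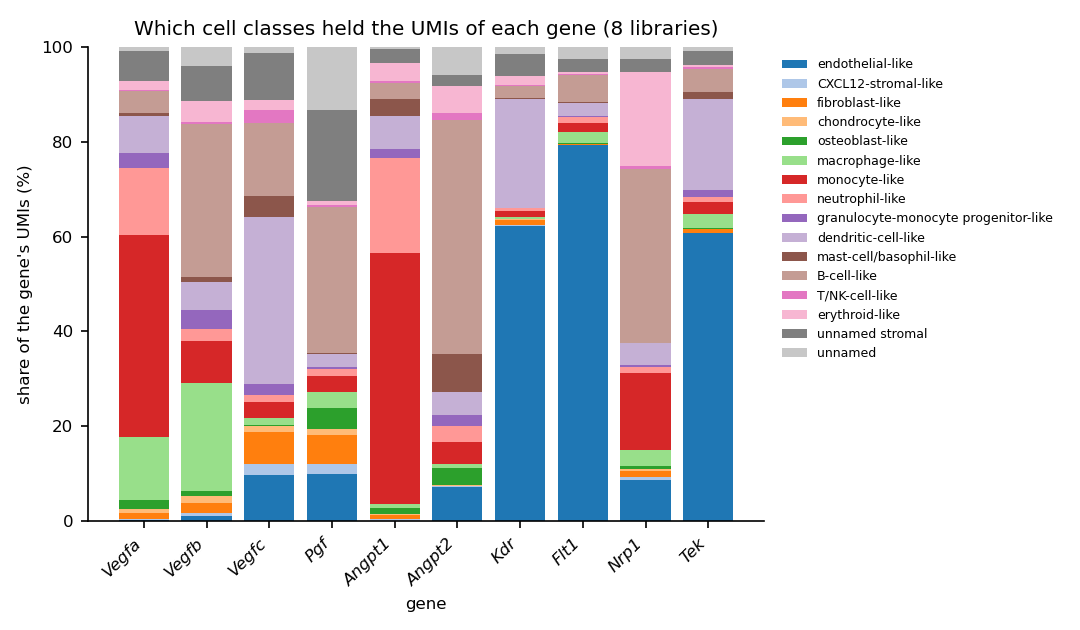
Share of all UMIs of each gene that came from each cell class, in percent, pooled over the 8 libraries. Endothelial-like cells account for 60.7% to 79.3% of Tek, Kdr and Flt1, monocyte-like cells for 42.7% of Vegfa and 53.0% of Angpt1, and B-cell-like cells for 49.3% of Angpt2.

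Among the ligands, Vegfa was high in macrophage-like, stromal and monocyte-like cells and near the floor in endothelium. Macrophage-like cells measured 105 to 248 CPM with a median of 134 (157 ± 54.7), and mesenchymal-like cells 50.4 to 218 CPM with a mean of 126 ± 54.0. Monocyte-like cells lay between 66.5 and 154 CPM in 7 libraries and at 10.2 CPM in TOE 4d 24h, and endothelial-like cells between 0 and 21.6 CPM. Macrophage-like, chondrocyte-like (144 ± 140.5 CPM, n = 4), fibroblast-like (120 ± 49.5 CPM, n = 3), monocyte-like (104 ± 46.0 CPM, n = 8) and dendritic-cell-like cells (88.9 ± 39.5 CPM, n = 8) followed each other without separating, since in each neighbouring pair at least 1 library had the reverse order. The chondrocyte-like mean rested on TO 2d 0h, with 354 CPM from 14 cells, beside 67.2 to 87.8 CPM in the other 3 libraries. By number of UMIs, monocyte-like cells supplied 42.7% of the 48378 Vegfa UMIs, neutrophil-like cells 14.0%, macrophage-like cells 13.4% and mesenchymal-like cells 9.73%. By library the monocyte-like share ran from 14.3% in TOE 4d 24h, where neutrophil-like cells held 39.3%, to 57.3%, and the macrophage-like share from 3.33% to 26.6%. After thinning, 23.2% of macrophage-like, 17.7% of monocyte-like and 17.6% of mesenchymal-like cells had a Vegfa UMI, against 1.11% of B-cell-like cells (57.1%, 49.9%, 72.2% and 3.16% unthinned, with medians of 13482, 13343, 30727 and 4343 UMIs). The macrophage-like class also held osteoclasts. At the finer clustering 433 of its 2181 cells were called osteoclast-like, where Vegfa measured 148 ± 49.0 CPM (n = 7), and 1747 joined monocyte-like clusters.

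Vegfb, a ligand of Flt1 tied mostly to metabolism in other tissues, had its highest mean in macrophage-like cells at 34.8 to 73.1 CPM with a mean of 54.4 ± 13.8. CXCL12-stromal-like cells followed at 43.9 ± 25.8 CPM (n = 3), not separated from them, and had the highest mean without TOE 2d 24h (58.6 CPM). B-cell-like cells, at 4.33 to 9.07 CPM, still carried 32.2% of its UMIs through their number (18.3% to 46.1% by library). Pgf, the placental growth factor, had its highest levels in stromal and endothelial cells. It averaged 33.0 CPM in CXCL12-stromal-like, 30.1 CPM in fibroblast-like and 26.8 CPM in endothelial-like cells, and below 2 CPM in B-cell-like cells, which through their number still held 30.8% of the 2172 Pgf UMIs (16.1% to 54.9% by library), against 29.8% in mesenchymal-like and 9.94% in endothelial-like cells. In endothelial-like cells Pgf ranged from 0 of 231648 UMIs in TOE 4d 24h, to 51.8 CPM in TO 4d 4h.

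Vegfc had its highest mean in endothelial-like cells, at 10.2 to 133 CPM with a mean of 52.9 ± 40.2. The 2 highest libraries rested on few cells, with 78 UMIs in 10 of 31 cells in TO 2d 4h and 97 UMIs in 16 of 61 cells in TOE 4d 4h. Fibroblast-like cells measured 43.2 ± 7.02 CPM (n = 3) and mast-cell/basophil-like cells 24.5 ± 6.20 CPM (n = 8). Endothelial-like cells were above fibroblast-like cells in all 3 libraries with both. The highest mean passed to fibroblast-like cells without TO 2d 4h (43.2 CPM) and to CXCL12-stromal-like cells without TOE 4d 24h (63.3 CPM) or in a mean over cells (68.1 CPM). The dendritic-cell-like class, which held the HSPC-like cells described above, carried 35.2% of the Vegfc UMIs, from 26.0% to 52.8% by library. At the finer clustering HSPC-like cells (55.6 CPM) were the class with the highest mean. Among endothelial-like cells Vegfc, on UMIs pooled over libraries, was highest in the 47 cells of the arterial-like sub-cluster, led by Gja5 and Gja4. It reached 231 CPM there (95% Poisson interval 202 to 264, for counting error only). The other 5 sub-clusters lay between 8.41 and 82.4 CPM. This arterial-like group came to 42.6% from TOE 2d 24h.

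The 2 angiopoietins had different sources. Angpt1, the activating ligand of Tek, was highest in mast-cell/basophil-like cells, at 194 to 388 CPM with a mean of 270 ± 72.7, above monocyte-like cells (73.8 to 247 CPM, 149 ± 52.2) in all 8 libraries. Mast-cell/basophil-like cells were few, and monocyte-like cells supplied 53.0% and neutrophil-like cells 19.9% of the 52745 Angpt1 UMIs, but 14.3% and 52.7% in TOE 4d 24h. Mesenchymal-like cells measured 32.3 to 115 CPM and endothelial-like cells 1.70 to 12.0 CPM. Thinned, 32.4% of mast-cell/basophil-like cells had an Angpt1 UMI and 10.8% an Angpt2 UMI (62.4% and 35.5% unthinned, median 3384 UMIs), against 0.820% and 0.891% of B-cell-like cells (2.55% and 3.86% unthinned, median 4343 UMIs). Of the 989 mast-cell/basophil-like cells 612 were deep enough to be thinned. All 4 of their shares are of these 612 cells, whereas the median is of all 989.

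In the clustering used here, Angpt2 had its highest mean in the same mast-cell/basophil-like class, at 33.2 to 126 CPM (67.4 ± 29.4), and the next in endothelial-like cells. Endothelial-like values were 9.59 CPM in TO 2d 0h, 47.6 in TO 2d 4h, 151 in TO 4d 4h, 20.5 in TO 4d 24h, 36.0 in TOE 2d 4h, 31.9 in TOE 2d 24h, 82.9 in TOE 4d 4h and 17.3 in TOE 4d 24h. As with Flt1 and Nrp1, the 4 libraries of 4 h were above the other 4, with 36.0 CPM the lowest of the first and 31.9 CPM the highest of the second. The counts behind the lowest were 4 UMIs in TO 2d 0h and 4 UMIs in TOE 4d 24h, and the split was again noticed after the values were seen. Here too the share of all genes that divide in this way was not counted. In TO 4d 4h, 144 of the 184 Angpt2 UMIs came from 23 cells of the sub-cluster led by Tacr1 and Meox2. That sub-cluster had 121 CPM on UMIs pooled over all libraries, those of TO 4d 4h included. The 2 classes, mast-cell/basophil-like and endothelial-like, were not separated (6 of 8 libraries in the same order). Osteoblast-like cells followed at 21.9 ± 7.07 CPM. B-cell-like cells, at 4.39 to 13.8 CPM, carried 49.3% of the Angpt2 UMIs (33.4% to 65.4% by library).

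Pericytes and smooth muscle of vessel walls were not separated from other cells in the clustering used above, but formed a class of 92 cells at the finer clustering, led by Rgs5, Notch3 and Acta2. That class had the highest mean Pgf and Angpt2 of all classes there. Pgf measured 102 CPM in TO 2d 4h, 95 in TO 4d 4h, 71.2 in TOE 2d 24h and 132 in TOE 4d 4h, the 4 libraries with at least 10 such cells. Angpt2 measured 138, 119, 55.7 and 156 CPM in the same order. With the stricter filter of cells and with doublets kept, such a class also formed at the resolution used above. It again had the highest means, at 97.8 and 101 CPM of Pgf and 115 and 115 CPM of Angpt2. The classes in which Pgf and Angpt2 were highest above therefore depend on whether these cells form a class. They also changed without such a class. With at least 30 cells required, endothelial-like cells had the highest mean of Angpt2 (78.4 CPM) and Pgf (34.7 CPM), and fibroblast-like cells had the highest mean of Pgf without TO 2d 0h (29.7 CPM) or TO 4d 4h (37.9 CPM).

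Endothelial-like cells exceeded the pericyte/smooth-muscle-like cells in 5 members by edgeR's quasi-likelihood test in those 4 libraries, where 14.7% of 9173 genes were higher and 13.8% lower. Kdr was higher by 6.56 ± 0.59, Tek by 6.09 ± 0.45, Flt1 by 3.05 ± 0.42, Vegfc by 2.06 ± 0.32 and Nrp1 by 0.80 ± 0.21 (log2, SE, edgeR adjusted p from 7.93e-05 to 0.0181). Vegfa was lower by log2 -1.56 ± 0.36 and Pgf by -1.50 ± 0.30 (edgeR adjusted p = 0.0115 and 0.00554), and Angpt2 (-0.70 ± 0.29) and Vegfb (-1.32 ± 0.44) did not pass. The finer clustering was 1 of the alternatives, and the smaller Flt1 difference stood beside Flt1 levels of 72.7 to 742 CPM in the pericyte/smooth-muscle-like cells.

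The endothelial-like sub-clusters also differed in their receptors. Their levels are of UMIs pooled over libraries, including libraries with fewer than 10 cells of a sub-cluster. The sub-cluster led by Adamts5 and Stab2 (69 cells) had the highest Flt1, 2643 CPM, and the highest Kdr, 769 CPM. The sub-cluster led by Il13ra2 and Dab1 (45 cells) had the highest Nrp1, 864 CPM, and the highest Tek, 551 CPM. The arterial-like group had 346 CPM of Kdr and 241 CPM of Tek. The lowest values were 273 CPM of Kdr and 150 CPM of Tek in 25 cells led by Tagln and Col3a1. Sub-clusters were spread unevenly over libraries, with up to 48.0% of a sub-cluster from 1 library, and were not tested against each other.

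Vegfa and Angpt1 varied between the clusters of the myeloid classes, in means over libraries. Among neutrophil-like clusters, the one led by Retnlg, Mmp8, Chi3l1 and Mmp9, genes of late neutrophils, had the highest Angpt1, 276 CPM, and the lowest Vegfa, 9.12 CPM. A cluster that also had Retnlg and Mmp8 but with Nos2 and G0s2 among its leading genes had 154 CPM of Angpt1 and 104 CPM of Vegfa. The cluster led by the early granule genes Defa5 and Np4 had 19.0 CPM of Angpt1 and 43.8 CPM of Vegfa, and the one led by Ngp, Lcn2 and Camp 54.2 CPM and 24.7 CPM. A small cluster led by the chemokines Cxcl3 and Cxcl2, with 311 of its 386 cells from TO 2d 0h, had 694 CPM of Vegfa in that library. Of the 2 monocyte-like clusters, the one led by Ccl2 and Il1b had 141 CPM of Vegfa against 24.9 CPM in the other. Nrp1 had the opposite order there, 22.5 CPM against 62.2 CPM.

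To set sources of ligand against cells with receptor, 5 pairs of classes were compared with edgeR's quasi-likelihood test on sums per library, with the library as a block and Benjamini-Hochberg adjustment over all genes. The comparisons had n = 8 libraries each, apart from osteoblast-like against fibroblast-like with n = 3. The 10 genes took no part in the clustering. Since the classes are distinct cell types, large shares of all genes differed, and the counts of members are to be read against those shares.

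Between endothelial-like and mesenchymal-like cells the ligands and receptors divided. All 4 receptors were higher in endothelium, Flt1 by 8.48 ± 0.27 (log2, SE), Tek by 7.72 ± 0.39, Kdr by 7.07 ± 0.42 and Nrp1 by 2.82 ± 0.15 (edgeR adjusted p from 7.89e-11 to 1.29e-08). Angpt2 was higher by 2.01 ± 0.62, in CPM in 5 of 8 libraries (edgeR adjusted p = 0.017), and Vegfc by 0.96 ± 0.28 (edgeR adjusted p = 0.0133). Vegfa was lower by log2 -4.01 ± 0.21, Angpt1 by -3.74 ± 0.29 and Vegfb by -1.25 ± 0.25 (edgeR adjusted p = 3.81e-09, 1.37e-07 and 0.00112), and Pgf did not pass (0.25 ± 0.33). Thus 6 members were higher and 3 lower of 10 tested, where 23.1% and 24.2% of 9562 genes were. The Angpt2 call was lost without TOE 2d 24h (edgeR adjusted p = 0.0611), without TOE 4d 4h (edgeR adjusted p = 0.0651) and at the finer clustering (edgeR adjusted p = 0.0535), and the Vegfc call without TOE 4d 4h (edgeR adjusted p = 0.0562).

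**Figure D4:**
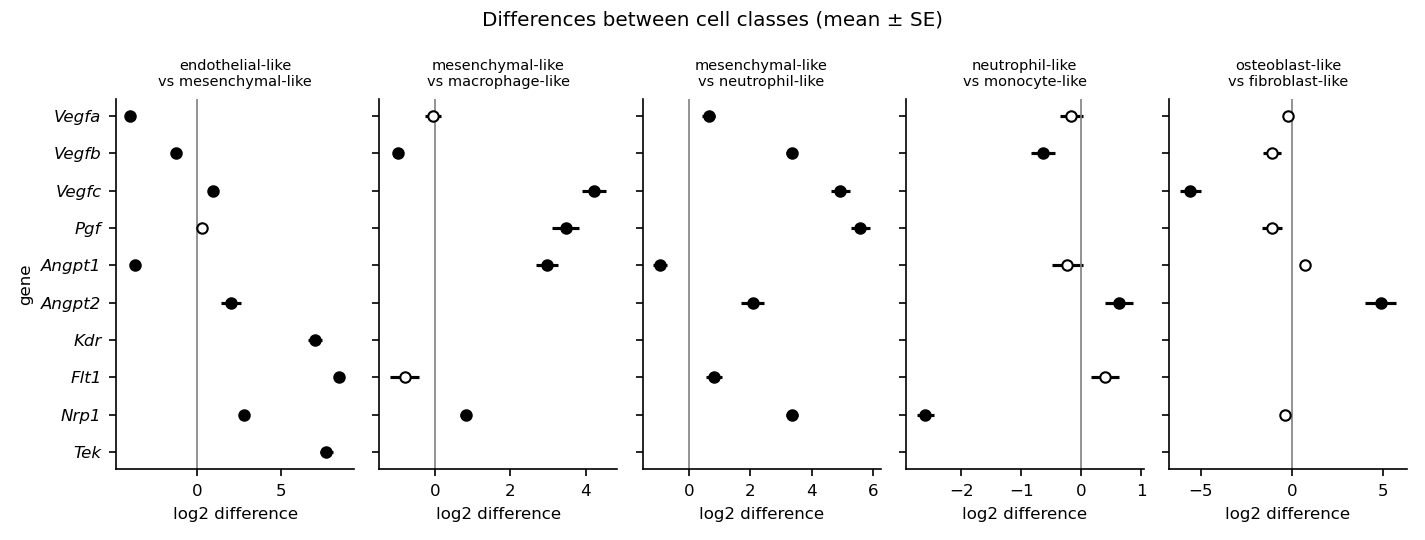
Log2 difference of each gene between 2 cell classes in each of the 5 comparisons, with bars for the standard error, filled where the adjusted p passed the threshold of 0.05. Open points did not pass, genes too low to be tested have no point, and the axes differ between comparisons. In endothelial-like against mesenchymal-like cells the receptors lie between 2.82 and 8.48, and Vegfa and Angpt1 at -4.01 and -3.74.

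Mesenchymal-like cells exceeded macrophage-like cells in Vegfc by 4.23 ± 0.32, Pgf by 3.47 ± 0.36, Angpt1 by 2.97 ± 0.29 and Nrp1 by 0.82 ± 0.16 (log2, SE, edgeR adjusted p from 1.39e-07 to 0.000633). The Nrp1 difference had this direction in CPM in 6 of 8 libraries. Vegfb was lower in them by log2 -0.97 ± 0.13 (edgeR adjusted p = 2.76e-05). Vegfa differed by -0.05 ± 0.20 and Flt1 by -0.79 ± 0.39, and neither passed (edgeR adjusted p = 0.863 and 0.0922). Angpt2, Kdr and Tek were too low to be tested. Of 7 tested members 4 were higher and 1 lower, beside 32% and 29.7% of 11999 genes.

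Against neutrophil-like cells, mesenchymal-like cells were higher in 7 of 8 tested members and lower in 1, where 41% and 39.8% of 14040 genes were. The largest differences were Pgf at 5.58 ± 0.30, Vegfc at 4.92 ± 0.31, Nrp1 at 3.35 ± 0.20 and Vegfb at 3.34 ± 0.17 (log2, SE, edgeR adjusted p from 6.82e-10 to 5.31e-09). Angpt2 was higher by 2.07 ± 0.38, Flt1 by 0.80 ± 0.26 and Vegfa by 0.64 ± 0.21 (edgeR adjusted p = 0.000179, 0.0112 and 0.0123). Angpt1 was lower by log2 -0.93 ± 0.23, in CPM in 5 of 8 libraries (edgeR adjusted p = 0.00177). The Vegfa call was lost without TO 4d 24h (edgeR adjusted p = 0.0826), without TOE 2d 4h (edgeR adjusted p = 0.105), at the finer clustering (edgeR adjusted p = 0.0900) and with stricter filtering of cells (edgeR adjusted p = 0.536). The Flt1 call was lost without TOE 2d 24h (edgeR adjusted p = 0.0531).

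Neutrophil-like cells were below monocyte-like cells in Nrp1 by log2 -2.60 ± 0.14 and in Vegfb by -0.64 ± 0.20 (edgeR adjusted p = 6.52e-09 and 0.0102). Angpt2 was higher in the TMM-scaled fit by 0.63 ± 0.24 (edgeR adjusted p = 0.0284), but in CPM the means were 1.57 and 1.53, with neutrophil-like cells higher in 4 libraries and lower in 4. Vegfa (-0.17 ± 0.19), Angpt1 (-0.23 ± 0.25) and Flt1 (0.39 ± 0.24) did not pass. In CPM neutrophil-like cells were lower in 7 of 8 libraries for Vegfa (means 59.6 and 104) and for Angpt1 (86.7 and 149), and in 5 of 8 for Flt1 (1.21 and 1.38), so the TMM-scaled differences lie above those of CPM. Of 6 tested members 1 was higher and 2 lower, where 37.4% and 39.3% of 14130 genes were. The Angpt2 call was lost without TO 2d 4h, TO 4d 4h, TOE 2d 4h or TOE 4d 4h (edgeR adjusted p from 0.0532 to 0.0654) and changed sign with the stricter filter (log2 -0.50, edgeR adjusted p = 0.128), and with doublets kept both the Angpt2 (edgeR adjusted p = 0.679) and the Vegfb call (edgeR adjusted p = 0.104) were lost. Without TOE 4d 24h 5 of 7 tested members passed in place of 3 of 6, where 10865 of 14153 genes did.

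Osteoblast-like and fibroblast-like cells differed in 2 of 7 tested members. Angpt2 was higher in osteoblast-like cells by 4.86 ± 0.86 (log2, SE, edgeR adjusted p = 0.00455), with 15.8 to 30.9 CPM in the 3 libraries against 0 to 4.24 CPM in fibroblast-like cells. Vegfc was lower by log2 -5.57 ± 0.58 (edgeR adjusted p = 0.000296), with 0 to 1.05 CPM against 37.2 to 50.9 CPM. Neither pair of ranges overlapped. Nor did those of Vegfb, at 3.09 to 8.41 against 13.9 to 30.1 CPM. Kdr, Flt1 and Tek were too low to be tested here, and their ranges did not overlap either. Kdr (0 to 0.594 against 4.24 to 11.2 CPM) and Tek (0 to 1.05 against 3.18 to 6.93 CPM) were lower in osteoblast-like cells. Flt1 was higher in them (2.38 to 6.18 against 1.06 to 2.31 CPM). The share of all genes with such ranges was not counted. By the test 10.4% of 8473 genes were higher and 9.98% lower. The other 5 tested members did not pass, with differences of -0.21 ± 0.24 for Vegfa, -1.11 ± 0.50 for Vegfb, -1.09 ± 0.56 for Pgf, 0.70 ± 0.27 for Angpt1 and -0.39 ± 0.28 for Nrp1 (edgeR adjusted p from 0.101 to 0.602). The 5 osteoblast-like Angpt2 values outside these libraries lay between 13.7 and 31.1 CPM.

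In all, 41 further genes of the pathway were read in the same fits, as receptors, extracellular regulators, signalling molecules, endothelial targets and oxygen sensors. Of the 34 tested between endothelial-like and mesenchymal-like cells, 21 were higher and 5 lower, beside 23.1% and 24.2% of all genes. Ptprb, the phosphatase that restrains Tek, was higher by 9.71 ± 0.40, the apelin receptor Aplnr by 8.50 ± 0.26 and Tie1, the partner of Tek, by 8.04 ± 0.21 (log2, SE). The semaphorin Sema3c and the thrombospondins Thbs2 and Thbs1, which are antiangiogenic matrix proteins, were lower by log2 -5.93 ± 0.41, -3.53 ± 0.34 and -2.72 ± 0.37 (edgeR adjusted p from 4.51e-11 to 4.19e-05 for the 6 genes). The 5 endothelial targets tested (Apln, Aplnr, Dll4, Klf2 and Notch1) were all among the higher genes. They are the only group of the further genes broken down here.

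Between mesenchymal-like and macrophage-like cells 14 of 30 further genes were higher and 10 lower, beside 32% and 29.7% of all genes. Thbs2 led at 8.16 ± 0.32, followed by the protease Adamts1 at 7.2 ± 0.31 and Sema3a at 5.55 ± 0.41, and the lowest were Tie1 at -4.70 ± 0.21, the adaptor Dok2 at -4.31 ± 0.25 and the oxygen sensor Egln3 at -3.02 ± 0.46 (log2, SE). Between mesenchymal-like and neutrophil-like cells 19 of 32 were higher and 9 lower (41% and 39.8% of all genes), again with Thbs2 (8.09 ± 0.49) and Adamts1 (7.18 ± 0.46) ahead. Between neutrophil-like and monocyte-like cells 6 of 28 were higher, with Egln3 first at 2.99 ± 0.25, and 9 lower, with Sema3c at -3.07 ± 0.31 and the co-receptor Nrp2 at -2.35 ± 0.12 lowest, beside 37.4% and 39.3% of all genes. Between osteoblast-like and fibroblast-like cells 4 of 27 were higher, led by Nrp2 at 2.78 ± 0.33, and 8 lower, led by the matrix protein Svep1 at -6.08 ± 0.81 and the ligand Angpt4 at -3.61 ± 0.66, beside 10.4% and 9.98% of all genes.

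The genes whose pattern was most like each member were sought among 18749 genes by the Pearson correlation of log2(CPM + 1) over 98 sums of 14 classes in 8 libraries, a description in which sums of a class share cell type and depth. For Flt1 they were Cdh5 (r = 0.95), Myct1 (0.94) and Emcn (0.94), and for Kdr Mecom (0.95), Shank3 (0.94) and Plvap (0.94). Tek was closest to Mecom (0.92), Kdr (0.90) and Plvap (0.90). Cdh5, Emcn and Plvap were among the markers that named the endothelial-like class. Nrp1 was closest to Stx2 (0.86), Pgf to Map1b (0.87), Vegfc to Pear1 (0.83) and Vegfb to the receptor Axl (0.71). Vegfa was closest to Metrnl (0.79), Jdp2 (0.78) and Cebpb (0.77), and Angpt1, the least matched, to Notch2 (0.67). Angpt2 was closest to Nmnat2 (0.74).

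The question of the study, what shock waves add to the osteotomy, was read in 3 pairs of libraries of the same day and hour. Each pair is 1 TOE and 1 TO library, so ratios of CPM are given with 95% intervals that cover counting error only and compare these libraries, not the treatments. Ratios were taken where a gene had at least 20 UMIs over the pair, in all cells and in 6 classes. Over the 10 genes 27 of 159 measured ratios were past 2-fold, and of all genes 4.55% to 25.5% were, by pair and class.

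Over all cells, none of the 10 genes was past 2-fold at 2d 4h or at 4d 4h, where 5.82% and 2.5% of genes were higher and 6.35% and 3.98% lower. At 4d 24h, where 17.7% of genes were higher and 7.38% lower, Angpt2 was higher in TOE (11.6 against 4.56 CPM, ratio 2.54, 2.29 to 2.83) and 3 genes were lower. Vegfa fell from 27.5 to 8.20 CPM (ratio 0.298, 0.274 to 0.322), Vegfc from 3.29 to 1.47 CPM (ratio 0.448) and Pgf from 1.32 to 0.648 CPM (ratio 0.491). The 4d 24h pair also had the most genes past 2-fold of the 3 pairs, and TOE 4d 24h was the library with the fewest UMIs.

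The Vegfa difference of the 4d 24h pair was seen in several classes. Monocyte-like cells had 10.2 CPM in TOE against 66.5 CPM in TO (ratio 0.153, 0.125 to 0.187), neutrophil-like cells 14.0 against 47.4 CPM (0.296), B-cell-like cells 1.24 against 3.80 CPM (0.327) and mesenchymal-like cells 50.4 against 102 CPM (0.493). Dendritic-cell-like cells had 8.33 against 60.4 CPM and mast-cell/basophil-like cells 7.69 against 37.4 CPM. Macrophage-like cells did not share it, with 132 CPM from 24 cells in TOE and 112 CPM from 134 cells in TO (1.18, 0.830 to 1.65). In each of these classes but the macrophage-like, TOE 4d 24h was the lowest of the 8 libraries for Vegfa.

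The make-up of the classes changed in the same pair. Of the monocyte-like cells, 37 of 680 in TOE 4d 24h were in the cluster led by Ccl2 and Il1b, against 989 of 1266 in TO 4d 24h. Vegfa within that cluster was 123 CPM in TOE and 74.9 CPM in TO, and within the other monocyte-like cluster 3.83 against 14.2 CPM. Of the neutrophil-like cells, 1376 of 3205 in TOE were in the cluster with Chi3l1 and Mmp9, against 90 of 2293 in TO, and Vegfa in that cluster was 13.4 against 13 CPM. In the 3 other large neutrophil-like clusters Vegfa was lower in TOE, at 32.9 against 67.2 CPM, 20.7 against 37.3 CPM and 4.78 against 14.6 CPM. Vegfa was thus lower in TOE within 4 of these 6 clusters. Mesenchymal-like cells comprised 75 osteoblast-like, 1 chondrocyte-like and 9 CXCL12-stromal-like cells in TO and 36, 28 and 15 in TOE, and Vegfa in the osteoblast-like cells was 45.1 CPM in TOE against 98.6 CPM in TO. B-cell-like cells shifted as well. The cluster led by Vpreb3 and Mzb1 held 49.6% of them in TO and 1.3% in TOE, the one led by Igha and Jchain 17.7% and 1.0%, and the one led by Bach2 and Pax5 4.5% and 53.2%. In the cluster led by histone genes, at 17.1% in TO and 13.1% in TOE, Vegfa was 1.06 CPM in TOE against 3.14 CPM in TO, and in the one led by Bach2 and Pax5 1.04 against 8.04 CPM, from 15 and 10 UMIs. The part of the make-up in these differences was not tested.

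At 4 h, Vegfa in mesenchymal-like cells was higher in TOE on both days, at 218 against 131 CPM on day 2 (1.67, 1.36 to 2.05) and 130 against 72.3 CPM on day 4 (1.80, 1.57 to 2.06), both short of 2-fold. The make-up differed here too. TO 4d 4h had 124 fibroblast-like, 16 osteoblast-like and 3 chondrocyte-like cells, and TOE 4d 4h 26, 40 and 43. On day 4 Vegfa was higher in TOE in fibroblast-like (139 against 64.3 CPM) and osteoblast-like cells (74.6 against 49.4 CPM), but on day 2 osteoblast-like cells had 74.2 CPM in TOE and 109 CPM in TO. The part of the make-up was not tested. Mesenchymal-like cells at 24 h of day 4 had the opposite order. In neutrophil-like cells Vegfa was lower in TOE in all 3 pairs, with ratios of 0.595, 0.597 and 0.296. At 2d 4h these cells also lay in different clusters, with 51.5% in TO and 25.3% in TOE in the cluster with Nos2 and G0s2, and 2.0% and 12.1% in the one with Chi3l1 and Mmp9. Within the former Vegfa was 94.0 CPM in TOE against 199.8 CPM in TO at 2d 4h and 74.0 against 157 CPM at 4d 4h, while within the cluster led by Defa5 and Np4 it was 61.5 against 61.0 CPM at 2d 4h and 43.2 against 61.9 CPM at 4d 4h. The 8 mesenchymal-like values overlapped between the arms, with TO from 72.3 to 178 CPM and TOE from 50.4 to 218 CPM.

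**Figure D5:**
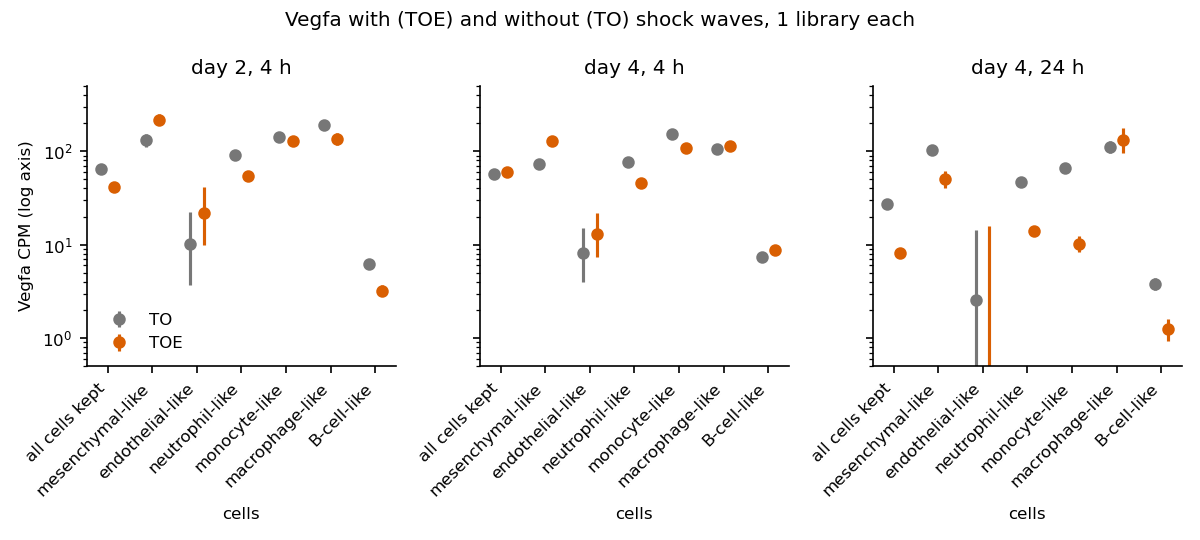
Vegfa for all cells and 6 classes at the 3 matched times, in CPM on a log axis, with TO and TOE side by side and bars for the 95% Poisson interval of counting. At 4d 24h the TOE point lies below the TO point in monocyte-like (10.2 against 66.5 CPM) and neutrophil-like cells (14.0 against 47.4 CPM) and not in macrophage-like cells.

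In endothelial-like cells, where 7.11% of genes were higher and 6.13% lower at 2d 4h, Pgf was higher in TOE (45.6 against 13.6 CPM, 19 and 8 UMIs, ratio 3.35, 1.40 to 8.85) and Vegfc lower (26.4 against 133 CPM, ratio 0.199, 0.0955 to 0.376). At 4d 4h, with 6.23% of genes higher and 2.93% lower, Vegfb was at 12.2 against 4.93 CPM (14 and 6 UMIs) with an interval of 0.895 to 7.87 that includes 1. At 4d 24h, with 7.87% of genes higher and 15.9% lower, Kdr was lower (337 against 739 CPM, ratio 0.456, 0.350 to 0.587), from 13 and 24 cells. Flt1 stayed within 2-fold in all 3 pairs, with ratios of 0.679, 0.939 and 0.668.

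Mesenchymal-like cells at 2d 4h, from 54 and 53 cells, had more Pgf in TOE (68.1 against 10.8 CPM, ratio 6.33, 3.48 to 12.4) and less Angpt1 (39.6 against 115 CPM, ratio 0.344, 0.238 to 0.487), where 5.4% of genes were higher and 5.88% lower. The 74 Pgf UMIs of TOE came from 15 cells. At 4d 4h, where 5.46% of genes were higher and 5.87% lower, Kdr was lower (1.65 against 9.45 CPM, ratio 0.175), with 49 UMIs in 27 of 154 cells of TO 4d 4h, the library that also gave most fibroblast-like cells. At 4d 24h, where 16.3% of genes were higher and 3.51% lower, Vegfc was lower (2.74 against 14.3 CPM, 5 and 38 UMIs) besides Vegfa. Of the 38 Vegfc UMIs in TO, 28 came from 9 CXCL12-stromal-like cells, and the 15 such cells in TOE had 0.

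Among blood cells, macrophage-like cells at 4d 4h, where 1.88% of genes were higher and 3.77% lower, had less Flt1 (4.88 against 22.8 CPM, ratio 0.214) and less Nrp1 (28.5 against 69.8 CPM, ratio 0.409) in TOE. The 107 Flt1 UMIs of TO 4d 4h came from 29 of 276 cells. Neutrophil-like cells at 2d 4h, where 7.33% of genes were higher and 3.72% lower, had more Nrp1 in TOE (5.76 against 2.50 CPM, ratio 2.31), and the ratio was 1.93 with doublets kept and 1.81 with the stricter filter of cells. Their clusters differed in this pair, as given above for Vegfa. Nrp1 was 6.21 against 2.09 CPM (38 and 12 UMIs) within the cluster led by Defa5 and Np4, and 8.01 against 3.13 CPM (15 and 14 UMIs) within the one with Nos2 and G0s2. None of the 6 members measured in them was past 2-fold at 4d 4h (1.91% of genes higher and 3% lower), and Vegfa was the only 1 at 4d 24h (12.5% higher and 9.6% lower). Monocyte-like cells at 4d 24h had less Angpt1 (73.8 against 177 CPM, ratio 0.417) and more Angpt2 and Flt1, both under 4 CPM, where 14.3% of genes were higher and 7.52% lower. With most of them in a different cluster in TOE, as given above, Angpt1 was 89.1 against 188 CPM within the cluster led by Ccl2 and Il1b and 72.9 against 109 CPM within the other. In that other cluster Angpt2 had 34 UMIs in TOE and 2 in TO, and Flt1 19 and 0. B-cell-like cells in that pair had more Angpt2 (13.8 against 4.39 CPM, ratio 3.13), Nrp1 (40.9 against 18.8 CPM, ratio 2.17), Flt1 and Tek, and less Pgf, where 18.4% of genes were higher and 7.17% lower. As given above, these cells lay in different clusters in the 2 libraries. Within the cluster led by histone genes Angpt2 was 24.0 against 6.60 CPM and Nrp1 44.9 against 23.5 CPM, while within the one led by Bach2 and Pax5 Angpt2 was 4.15 against 3.22 CPM and Nrp1 20.4 against 25.7 CPM. With TMM scaling the Flt1 and Nrp1 ratios in B-cell-like cells were both 1.9, short of 2-fold.

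The remaining pairs held no member past 2-fold. Monocyte-like cells had none of 7 measured at 2d 4h, where 5.98% of genes were higher and 3.28% lower, and none of 8 at 4d 4h, where 3.61% were higher and 2.84% lower. Macrophage-like cells had none of 5 at 2d 4h (4.45% higher and 3.38% lower) and none of 3 at 4d 24h (10.1% higher and 12.1% lower). B-cell-like cells had none of 10 at 2d 4h (6.88% higher and 5.66% lower) or at 4d 4h (3.1% higher and 1.45% lower).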

How the data were processed

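Single-cell RNA was measured in 8 libraries with a count matrix, of 9 samples in the labels (TO 2d 24h was not analysed here). The authors deposited UMI counts per gene and barcode. The submitters' processing notes name Cell Ranger 9.0.0, R 4.0.3 and Seurat, and the builds mRatBN7.2 and GRCh38 without saying what each was used for. Promoter sequences are on GRCr8 and were not joined to read coordinates.

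Of 116711 barcodes, 115442 had 200 genes or more and no more than 20% of UMIs from the 13 mitochondrial protein genes and were kept, and 3796 with a scrublet doublet score over 0.25 were removed. Cells were clustered in scanpy 1.11.5 on 2000 variable genes without the 10 members and the 41 further pathway genes (30 principal components, 15 neighbours, Leiden resolution 1). A cluster was named where at least 3 fixed markers were raised, clusters whose median UMI count was under a 3rd of that of their libraries stayed unnamed, and the rule for scoring names was set after the clusters had been seen. Class differences were tested on UMI counts summed per class and library (at least 10 cells) with edgeR 4.0.16, a quasi-likelihood fit with TMM scaling, filterByExpr and library as a block, since the classes came from the same libraries, and Benjamini-Hochberg adjustment over all genes at 0.05. DESeq2 1.42.0 was an alternative. On simulated counts for endothelial-like against mesenchymal-like cells (9398 genes), 68.0% of 97 genes changed 2-fold and 98.9% of 87 genes changed 4-fold were recovered. Of the 163 genes called there, 11 were unchanged. The simulation had no differences between libraries and few changed genes, whereas 4522 of 9562 were called in the data. Its rates may therefore not carry over to the data.

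TOE and TO were compared at 3 matched times, as ratios of CPM for genes with at least 20 UMIs over the pair, past 2-fold, with exact 95% intervals. TO 2d 0h and TOE 2d 24h had no partner. Intervals cover counting error only. All 10 members are named in every comparison in which they were tested. Of the further pathway genes, the 3 with the largest differences in each direction that passed were eligible to be named, and of the genes most like each member, the 3 with the largest correlation. The endothelial targets in endothelial-like against mesenchymal-like cells were named beyond this rule, and the other groups of further genes were not broken down. The members and lists were chosen with earlier results of these data known. Alternatives were a stricter filter (500 genes, 10%), doublets kept, Leiden resolution 2, other scalings, no filter on low counts, no block, each library left out, other minimum counts and a fold of 1.5.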

Additional observations from a re-analysis of the deposited data

Results flagged for a closer look

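In 8 instances the ratio of TOE to TO lay past 2-fold in one direction at 1 time and on the other side of 1 at another, with both counting intervals clear of 1. None of these differences between times was tested, since each time is 1 library per arm. For Vegfa over all cells the ratio was 0.298 in the 4d 24h pair but 1.05 in the 4d 4h pair, and for B-cell-like cells 0.327 but 1.18 in these pairs. Vegfa in mesenchymal-like cells had 0.493 at 4d 24h against 1.67 at 2d 4h and 1.80 at 4d 4h. Angpt2 over all cells reached 2.54 at 4d 24h against 0.682 at 4d 4h, and in B-cell-like cells 3.13 at 4d 24h and 0.826 at 2d 4h. The B-cell-like cells of the 4d 24h pair lay mostly in different clusters, and their part in these ratios was not tested. Vegfc in endothelial-like cells had 0.199 at 2d 4h, where 10 cells held the TO UMIs, and 1.39 at 4d 4h. Nrp1 in macrophage-like cells had 0.409 at 4d 4h and 1.38 at 2d 4h.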

How the results depend on the processing

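The receptor differences between endothelial-like and mesenchymal-like cells kept their direction and call under every alternative run. Over all members and class comparisons, 482 alternative values kept direction and call, 18 lost the call, 5 gained it and 16 changed sign. Sign changes were of differences that did not pass, apart from Angpt2 between neutrophil-like and monocyte-like cells, and the cause was not tested. Pgf in endothelial-like against mesenchymal-like cells was -0.050 with doublets kept, -0.14 at resolution 2, -0.15 with the stricter filter and -0.055 (without TOE 2d 24h) to 0.47 with a library left out. In mesenchymal-like against macrophage-like cells, Vegfa was -0.21 to 0.084 with a library left out, above 0 without TO 4d 4h, TOE 2d 24h or TOE 4d 24h, and Flt1 was 0.65 with doublets kept and 0.89 with the stricter filter. In neutrophil-like against monocyte-like cells, the stricter filter gave Vegfa 0.0084, Angpt1 0.29 and Angpt2 -0.50, doublets kept gave Angpt1 0.061, and resolution 2 gave Flt1 -0.15. Vegfa in osteoblast-like against fibroblast-like cells was 0.18 with doublets kept and 0.10 at resolution 2.

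Members called rose from 5 of 7 tested to 8 of 10 without the filter on low counts in mesenchymal-like against macrophage-like cells, where 9847 of 25294 genes were called. In neutrophil-like against monocyte-like cells they fell from 3 of 6 to 1 of 7 with doublets kept (10992 of 14170 genes called) and ranged from 2 to 5 with a library left out (10364 to 10865 genes called). Genes called between osteoblast-like and fibroblast-like cells were 1116 with doublets kept and 1101 at resolution 2, against 1723. Endothelial-like against pericyte/smooth-muscle-like cells could be fitted only with doublets kept (2622 genes and 8 members called), at resolution 2 (2620 and 7) and with the stricter filter (2645 and 7). Past 1.5-fold there were 60 of 159 ratios of TOE to TO, against 27 past 2-fold, and of all genes 12.4% to 46.2% were past 1.5-fold, by pair and class. No macrophage-like class formed at resolution 2. DESeq2 size factors moved the median of all genes in mesenchymal-like against neutrophil-like cells from 0.01 to -0.12.

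Without the library block 3740 genes in place of 4522 were called between endothelial-like and mesenchymal-like cells, and Vegfa in mesenchymal-like against neutrophil-like cells lost its call (edgeR adjusted p = 0.0828). For low genes depth sets wide limits: 0 Pgf UMIs of 231648 in the 13 endothelial-like cells of TOE 4d 24h has an upper 95% Poisson bound of 15.9 CPM.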

Other observations

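A cluster of 1213 cells with few UMIs, led by Mgp, Tagln, Col4a1 and Igfbp7 and left unnamed, carried Pgf at 0 to 102 CPM (mean 61.6) and Angpt2 at 8.40 to 149 CPM (mean 72.3). Of its cells 763 came from TOE 2d 24h. Its Angpt2 was 149, 80.9, 138 and 127 CPM in the 4 libraries of 4 h and 8.40 to 31.2 CPM in the other 4. A second unnamed cluster of 512 cells, led by C1qa and Fcna, had Vegfb at 36.8 to 254 CPM (mean 134), against 54.4 CPM in macrophage-like cells, from 150 UMIs in all. No test was run on these clusters, and the share of all genes that divide by hour was not counted in them.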
